A study of Rattus norvegicus with 10 samples.

Results

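Keratins Krt8, Krt18, Krt19, Krt5, Krt14, Krt15, Krt17 and Krt1 were followed across 10 mammary tumours of rats. They were taken by name from a list of 9 keratins used to tell the luminal from the basal layer of mammary epithelium. The ninth, Krt7, matched no probe through RefSeq transcript identifiers and is not analysed here. The other 8 were measured by 9 probes and were all among the 16779 genes tested, 8270 of which carried a symbol. The list held 3 measured luminal keratins (Krt8, Krt18, Krt19), 4 basal keratins (Krt5, Krt14, Krt15, Krt17) and the epidermal keratin Krt1.

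All tumours came from female Sprague-Dawley rats aged 110 days. Every animal had been given 50 mg/kg of the alkylating carcinogen N-methyl-N-nitrosourea by intraperitoneal injection at the age of 3 weeks, and every animal ate control diet after weaning. In the Western-style group (WD1 to WD5) the dams had eaten a diet high in fat and low in fibre and oligoelements on gestational days 12 to 20 and postnatal days 1 to 21. In the control group (CD1 to CD5) the dams had eaten control diet on the same days. Tissue without carcinogen was not analysed here. The labels do not say whether tumours came from separate dams or litters, so p-values measure the spread between these tumours only. RNA was taken from whole tubular or papillary tumours, so fewer epithelial cells and less keratin RNA per cell cannot be told apart.

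Keratins are the intermediate filament proteins of epithelial cells. A filament is built from a type II keratin (here Krt5, Krt8, Krt1) paired with a type I keratin (Krt14, Krt15, Krt17, Krt18, Krt19). In the mammary gland, Krt8 and Krt18 form the filaments of the luminal cells that line the ducts and alveoli, with Krt19 as a further luminal type I partner. Krt5 and Krt14 form those of the basal, myoepithelial layer. Krt15 and Krt17 are type I keratins of basal cells, and Krt17 is also known as a keratin of stressed and regenerating epithelium. Krt1 is the type II keratin of the differentiated layers of the epidermis.

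The keratin genes lie in 2 clusters of the rat genome. In the RefSeq annotation of GRCr8, Krt5, Krt1, Krt8 and Krt18 lie on chromosome 7, and Krt15, Krt19, Krt14 and Krt17 on chromosome 10. Krt8 and Krt18 are neighbours with 0 protein-coding genes between them, as are Krt15 and Krt19. The promoter windows available for 3 members, 250 bases before to 50 bases after the gene start, are shown because Krt8 and Krt18 are partners and neighbours whose levels are compared here, with Krt5 as the basal counterpart. Capitals mark matches on either strand to 4 short motifs. The core promoter element searched was TATAAA. The element known for binding of Sp1 family factors was GGGCGG. The element known for binding of the factor NF-Y was CCAAT. The element known for binding of AP-1 factors was TGANTCA.

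Krt8 (GRCr8, chr7:135010290-135010589, minus strand): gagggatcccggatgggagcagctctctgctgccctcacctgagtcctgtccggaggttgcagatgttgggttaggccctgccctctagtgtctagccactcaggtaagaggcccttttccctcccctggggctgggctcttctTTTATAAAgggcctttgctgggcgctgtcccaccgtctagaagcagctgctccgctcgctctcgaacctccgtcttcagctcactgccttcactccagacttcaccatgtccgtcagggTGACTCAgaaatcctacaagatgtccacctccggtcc
Krt18 (GRCr8, chr7:135035918-135036217, plus strand): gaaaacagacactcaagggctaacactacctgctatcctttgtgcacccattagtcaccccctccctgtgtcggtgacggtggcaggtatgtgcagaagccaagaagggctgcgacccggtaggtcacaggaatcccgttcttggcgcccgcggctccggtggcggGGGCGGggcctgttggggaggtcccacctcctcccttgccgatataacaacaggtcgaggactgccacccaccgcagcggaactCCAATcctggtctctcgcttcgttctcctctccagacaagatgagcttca
Krt5 (GRCr8, chr7:134730520-134730819, minus strand): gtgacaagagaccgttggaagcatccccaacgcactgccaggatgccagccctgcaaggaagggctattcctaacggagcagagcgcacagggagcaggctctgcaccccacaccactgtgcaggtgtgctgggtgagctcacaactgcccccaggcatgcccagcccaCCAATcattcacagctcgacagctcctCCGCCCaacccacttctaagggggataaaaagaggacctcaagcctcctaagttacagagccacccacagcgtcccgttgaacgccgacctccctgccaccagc

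The Krt8 window held TATAAA on both strands in overlapping positions and TGANTCA after the gene start. The Krt18 and Krt5 windows each held GGGCGG and CCAAT, with no match to the other 2 motifs. In the Krt18 window CCAAT began at the gene start, and in the Krt5 window it lay before the gene start. Of 33469 rat promoter windows of the same length, 14.2% held TATAAA, 33.1% GGGCGG, 37.5% CCAAT and 7.33% TGANTCA. A match describes letters only.

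Levels below are log2 signals minus the 75th percentile of the array, so a level of 0 is that percentile. They compare tumours for a given probe and do not rank probes against each other. In limma, 0 of 16779 genes passed an adjusted p under 0.05 for maternal diet (0%), and 2603 (15.5%) had an unadjusted p under 0.05. Of the 8 keratins 0 passed and 3 had an unadjusted p under 0.05, namely Krt8 and Krt19, both lower, and Krt1, higher in the Western-style group. With normexp background correction the unadjusted limma p was 0.0741 for Krt8, 0.0635 for Krt19 and 0.374 for Krt1, and with array brightness as a covariate it was 0.302, 0.195 and 0.175. For Krt1 it was 0.0673 with quantile normalization, and between 0.0563 and 0.0716 without WD1, WD2, CD1, CD4 or CD5. Over all tested genes, 7.72% were lower and 7.80% higher at that unadjusted threshold. The median difference of the 8 keratins was -0.11 (3 higher, 5 lower), against 0.01 over all tested genes. That keratin median was 0.11 with array brightness as a covariate, 0.062 without WD2 and -0.26 without WD1, so its sign was not stable. The groups overlapped for all 8 keratins, while 3.63% of tested genes had groups that did not overlap. The Western-style arrays had 75th percentiles of intensity from 72.8 to 170 and the control arrays from 85.0 to 226, a quantity called brightness here.

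Krt8, the type II keratin of luminal cells, was lower in the Western-style group. Its level was 4.07, 3.22, 3.15, 2.43 and 3.85 in WD1 to WD5 and 4.43, 4.46, 3.36, 4.82 and 4.43 in CD1 to CD5. WD4 was the lowest tumour, 4 control tumours lay above every Western-style tumour, and CD3 lay within the Western-style range. The means were 3.34 ± 0.65 (SD, n = 5) and 4.30 ± 0.55 (n = 5), a difference of -0.96 ± 0.34 (SE), which is 1.94-fold lower (95% interval -1.70 to -0.22). All 5 Western-style tumours lay below the control mean, as they did for 12.2% of tested genes. The limma adjusted p was 0.231 (unadjusted 0.0159).

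Krt19, the luminal type I keratin, followed the same order of groups. It was 5.02, 5.28, 5.33, 4.25 and 5.90 in WD1 to WD5 and 6.58, 6.42, 5.18, 7.07 and 6.05 in CD1 to CD5. Again 4 control tumours lay above every Western-style tumour and CD3 lay among them. The means were 5.15 ± 0.60 (SD, n = 5) and 6.26 ± 0.71 (n = 5), a difference of -1.11 ± 0.37 (SE), which is 2.15-fold lower (95% interval -1.91 to -0.30; limma adjusted p 0.213). From the lowest to the highest tumour Krt19 spanned 7.08-fold and Krt8 5.26-fold. Within slides 1, 2 and 3 the difference of Krt8 was -0.81, -1.11 and -0.78 and that of Krt19 -1.27, -0.83 and -0.93, so both were lower on each slide, with 1 tumour in a group on slides 1 and 3.

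**Figure D1:**
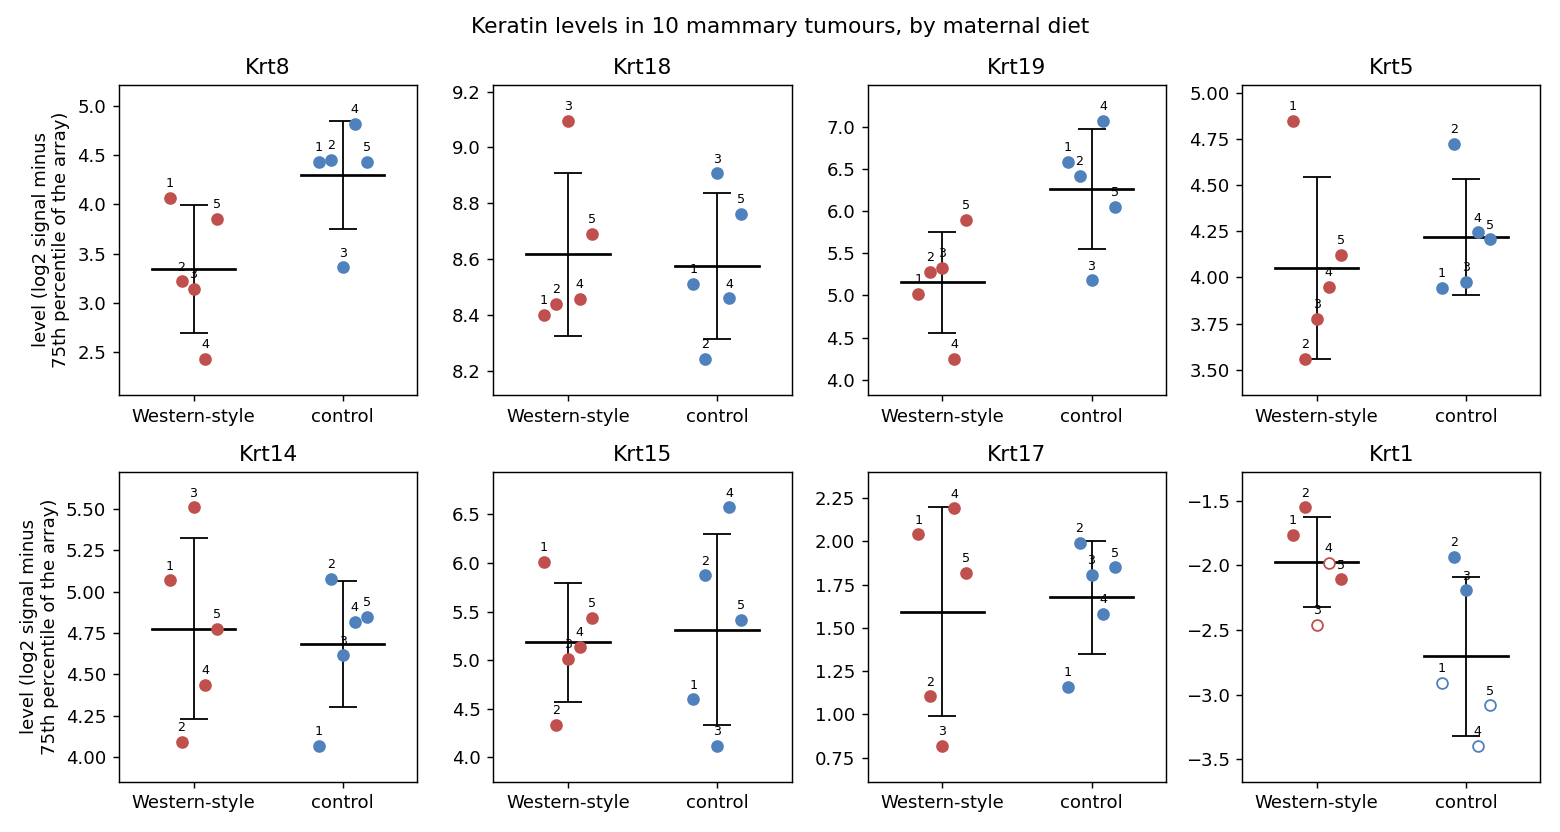
Levels of 8 keratins (log2 signal minus the 75th percentile of the array) in 5 Western-style and 5 control tumours, numbered by replicate. Horizontal lines are means and bars are SDs, and open circles mark arrays on which the probe was not well above background. Krt8 and Krt19 have 4 control tumours above all Western-style tumours, while the groups overlap widely for the other luminal and basal keratins.

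Krt18, the partner of Krt8, gave a different result for each of its 2 probes. The probe with the higher mean level, A_44_P400494, is the tested one. It was 8.40, 8.44, 9.10, 8.46 and 8.69 in WD1 to WD5 and 8.51, 8.24, 8.91, 8.46 and 8.76 in CD1 to CD5. The groups overlapped throughout, and the difference was 0.04 ± 0.18 (SE; 95% interval -0.36 to 0.44; limma adjusted p 0.934), with the sign turned under quantile normalization (-0.049) and on the authors' deposited values (-0.089). On the other probe, A_44_P1025476, the level was 6.31, 5.96, 6.66, 5.87 and 6.37 in WD1 to WD5 and 6.64, 6.52, 6.68, 6.64 and 6.81 in CD1 to CD5. There, 4 of 5 Western-style tumours lay below the lowest control tumour, and the difference was -0.43, which is 1.34-fold lower. With this probe in place of the first, the limma adjusted p was 0.267 (unadjusted 0.0273). Neither probe was marked as saturated on any array, and over the 10 tumours they correlated at r = 0.46 (permutation p = 0.173; rho = 0.71, p = 0.0265; r = 0.31 without the 2 tumours farthest from the median). The range from lowest to highest tumour was 1.81-fold on the tested probe and 1.92-fold on the other, less than for Krt8 or Krt19.

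**Figure D2:**
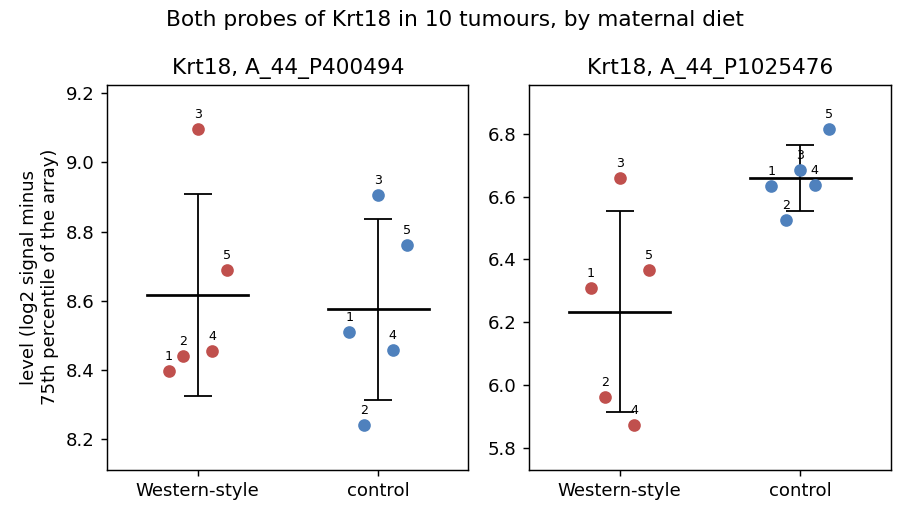
Levels of both Krt18 probes (log2 signal minus the 75th percentile of the array) in 5 Western-style and 5 control tumours, numbered by replicate, with means as lines and SDs as bars. The groups overlap on A_44_P400494 (difference 0.04), while 4 Western-style tumours lie below all control tumours on A_44_P1025476 (difference -0.43).

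Basal keratins had no difference beyond the spread between tumours. Krt5, the type II keratin of basal cells, was 4.85, 3.56, 3.77, 3.95 and 4.12 in WD1 to WD5 and 3.94, 4.72, 3.98, 4.24 and 4.21 in CD1 to CD5. WD1 and CD2 were the highest tumours of their groups, and the difference was -0.17 ± 0.25 (SE; 95% interval -0.71 to 0.37; limma adjusted p 0.764). It was -0.37 without WD1, -0.046 without WD2 and -0.042 without CD2 (limma adjusted p 0.374, 0.949 and 0.948). Krt14, its type I partner, was 5.07, 4.09, 5.51, 4.44 and 4.78 in WD1 to WD5 and 4.07, 5.08, 4.61, 4.82 and 4.85 in CD1 to CD5. WD3 was highest and CD1 and WD2 lowest, so the extremes of Krt14 fell in both groups. Its difference was 0.09 ± 0.27 (SE; 95% interval -0.51 to 0.69; limma adjusted p 0.898).

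Krt15, a keratin of basal cells, was 6.01, 4.33, 5.02, 5.14 and 5.43 in WD1 to WD5 and 4.60, 5.87, 4.12, 6.57 and 5.42 in CD1 to CD5. Both the lowest and the highest tumour were controls, CD3 and CD4, and the range was 5.48-fold. The difference was -0.13 ± 0.45 (SE; 95% interval -1.11 to 0.86; limma adjusted p 0.913). With a residual SD of 0.82, Krt15 varied between tumours of a group more than 92.9% of tested genes did. Krt17, the keratin of stressed epithelium, was 2.04, 1.10, 0.82, 2.19 and 1.82 in WD1 to WD5 and 1.16, 1.99, 1.81, 1.58 and 1.85 in CD1 to CD5. The Western-style group held both the lowest and the highest tumour, WD3 and WD4, and the difference was -0.08 ± 0.28 (SE; 95% interval -0.70 to 0.53; limma adjusted p 0.911).

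Krt1, the epidermal keratin, lay close to background. Its probe cleared background on 3 of 5 Western-style and 2 of 5 control arrays, the fewest with which a probe was kept. Its level was -1.76, -1.55, -2.46, -1.98 and -2.11 in WD1 to WD5 and -2.91, -1.93, -2.19, -3.40 and -3.08 in CD1 to CD5. The 3 lowest tumours, CD1, CD4 and CD5, were all controls in which the probe was not well above background. The difference was 0.73 ± 0.29 (SE; 95% interval 0.10 to 1.36; limma adjusted p 0.267), with normexp background correction 0.21 and on the authors' deposited log2 values 0.20.

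Array brightness moved with Krt8 and Krt19. Over the 10 tumours the level of Krt8 correlated with the log2 of the 75th percentile at r = 0.83 (permutation p = 0.00531, adjusted over 8 keratins 0.0425; rho = 0.83, p = 0.00477, adjusted 0.0382). It was 0.79 without WD2 and WD3, the 2 arrays farthest from the median brightness, and 0.78 with slide means removed. With group means removed it was 0.71, and with normexp background correction 0.65. Krt19 correlated at r = 0.77 (permutation p = 0.0106, adjusted 0.0425; rho = 0.66, p = 0.0437, adjusted 0.118), at 0.83 without the same 2 arrays and at 0.66 with slide means removed. For Krt19 the correlation was 0.61 with group means removed and 0.62 with normexp background correction. Among all tested genes, 98.2% had a lower correlation with brightness than Krt8 and 96.0% a lower one than Krt19. CD3, the control tumour with low Krt8 and Krt19, had the dimmest control array, and the other 4 control arrays were brighter than all 5 Western-style arrays.

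With brightness as a covariate the difference of Krt8 was -0.36 (limma unadjusted p 0.302) and that of Krt19 -0.55 (unadjusted p 0.195). With slide as a block they were -0.93 and -0.98 (limma adjusted p 0.173 and 0.162). Without CD3 they were -1.19 and -1.38 (limma adjusted p 0.120 and 0.112). Brightness is a property of the array that also carries the tumour's RNA, and its part in the differences was not tested beyond these values. The correlation of the other 6 keratins with brightness ran from -0.56 (Krt1) to 0.54 (Krt15), and 0 of them passed (permutation, adjusted p 0.209 to 0.938).

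**Figure D3:**
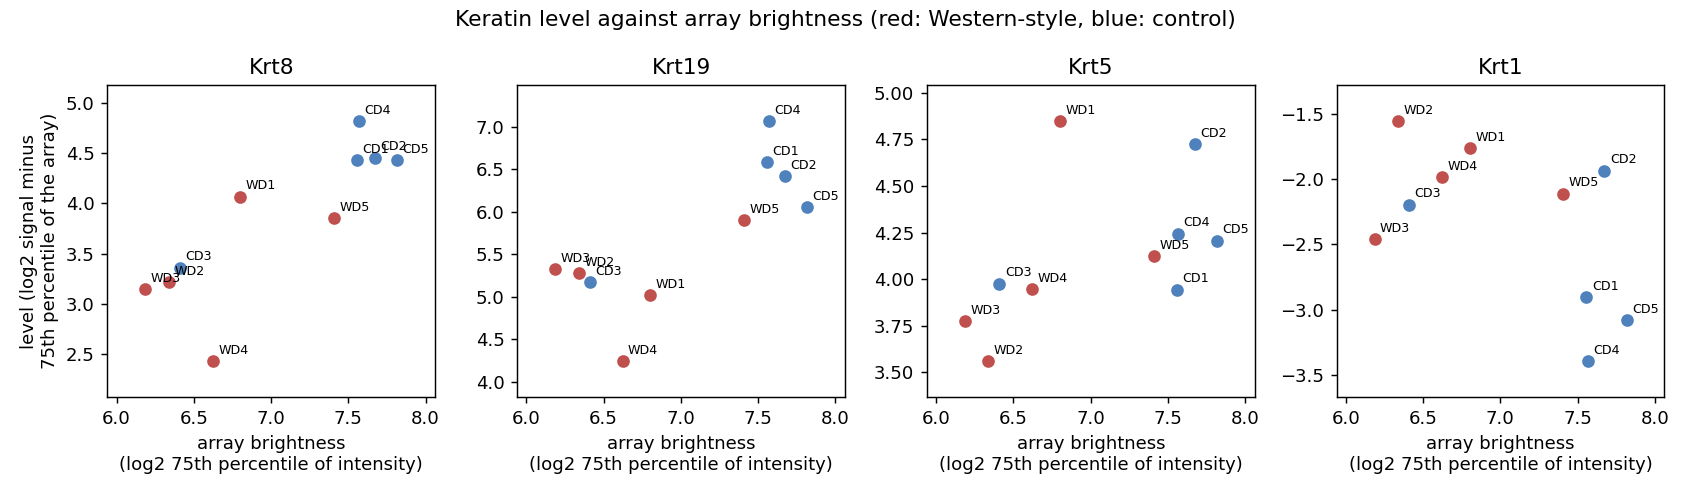
Levels of Krt8, Krt19, Krt5 and Krt1 (log2 signal minus the 75th percentile of the array) against array brightness (log2 of the 75th percentile of intensity), with 1 labelled point per tumour. Krt8 and Krt19 are high on the bright arrays (r = 0.83 and 0.77), on which 4 of 5 control tumours lie, and CD3 lies with the Western-style tumours.

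**Figure D4:**
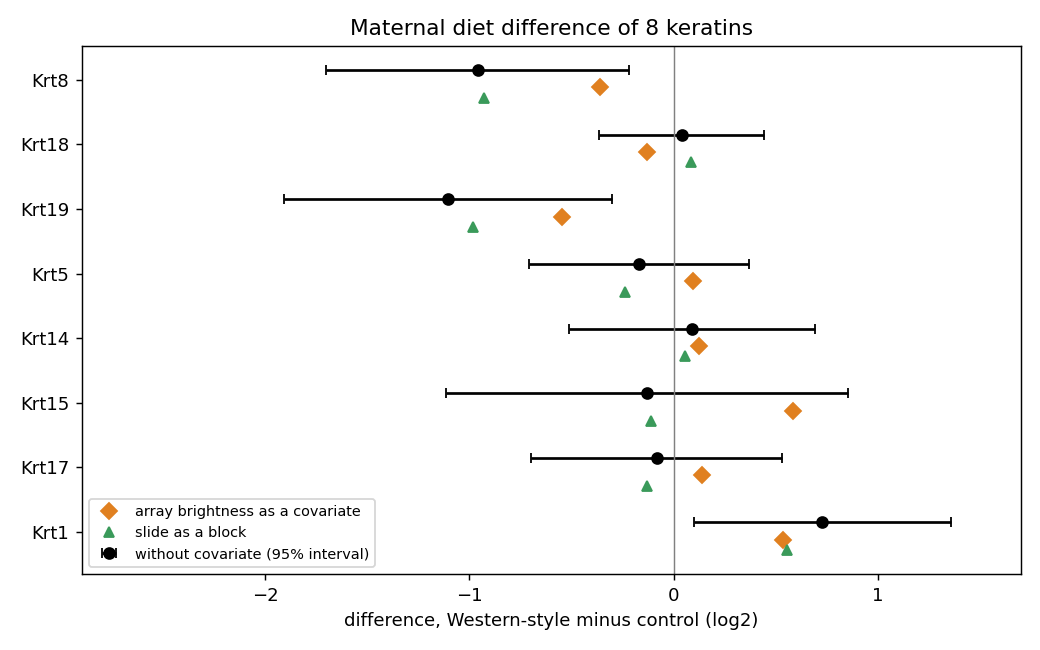
Difference between the Western-style and control groups (log2) for 8 keratins, with 95% intervals for the fit without a covariate, and the same difference with array brightness as a covariate or slide as a block. Krt8 and Krt19 are lower in all 3 fits, by 0.36 and 0.55 with brightness as a covariate.

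Keratins of a compartment were then compared with one another across the 10 tumours. Of 28 pairs, 1 passed, Krt8 with Krt19 (r = 0.89, permutation p = 0.00057, adjusted 0.016; rho = 0.82, p = 0.00531, adjusted 0.0777). It was 0.76 without WD4 and CD4, the 2 tumours farthest from the median of Krt8. With slide means removed it was 0.86, with group means removed 0.81 (adjusted p 0.175) and with array brightness removed 0.72 (adjusted p 0.281). The adjusted p was 0.134 without WD4, 0.056 without WD5, 0.0524 without CD2 and 0.0763 without CD4.

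Krt8 and its partner Krt18 correlated at r = -0.31 on the tested Krt18 probe (permutation p = 0.381, adjusted 0.628; rho = -0.29, p = 0.427; r = -0.55 without WD4 and CD4; -0.01 with slide means removed). On the other Krt18 probe the correlation with Krt8 was 0.64 (permutation p = 0.0492, adjusted over 7 keratins 0.123; rho = 0.33, p = 0.346; r = 0.35 without WD4 and CD4; 0.87 with slide means removed). The sign therefore depended on the probe.

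All 6 pairs of basal keratins had positive correlations, from 0.07 to 0.72, and 0 passed. Krt5 correlated with Krt15 at r = 0.72 (permutation p = 0.0187, adjusted 0.261; rho = 0.82, p = 0.00555, adjusted 0.0777; r = 0.70 without WD1 and CD2; 0.74 with slide means removed). Krt5 correlated with its partner Krt14 at r = 0.46 (permutation p = 0.175, adjusted 0.489; rho = 0.52, p = 0.133; r = 0.26 without WD1 and CD2; 0.58 with slide means removed). WD3, which had the highest Krt14 and the lowest Krt17, weighed on these values: without it Krt5 with Krt14 was 0.88 (adjusted p 0.0347). Of the 19 pairs that joined keratins of different compartments, 10 were positive, with a median of 0.02 and a range of -0.68 to 0.57, and 0 passed. Among them Krt8 with Krt5, the type II keratins of the luminal and basal layers, was 0.55 (permutation p = 0.0989, adjusted 0.395; rho = 0.64, p = 0.054; r = 0.65 without WD4 and CD4; 0.61 with slide means removed). Slides held too few tumours for a correlation within each.

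**Figure D5:**
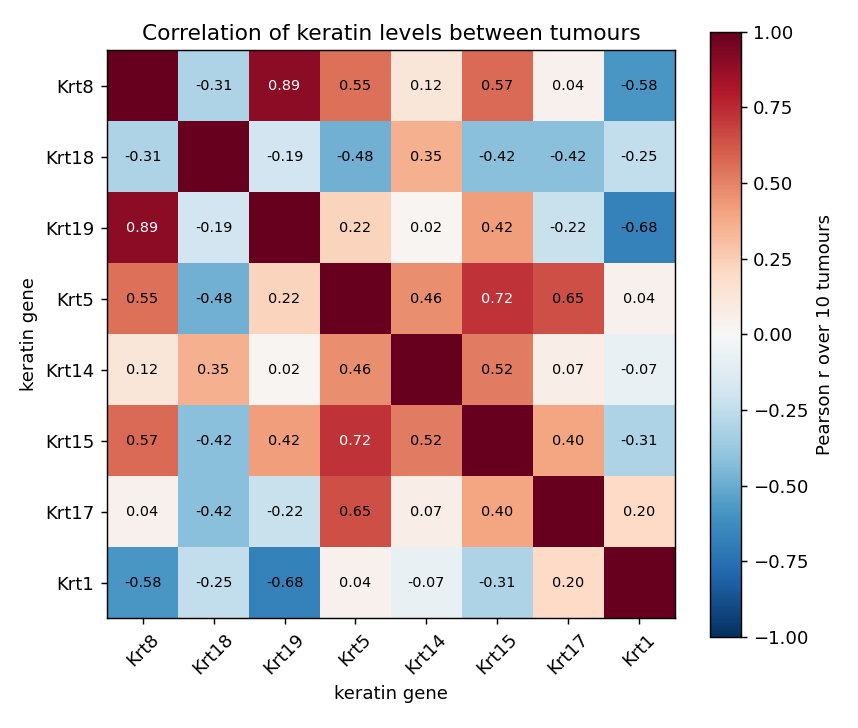
Pearson correlation of keratin levels over 10 tumours for the 28 pairs of measured keratins, with Krt18 on its tested probe. Krt8 with Krt19 is highest at 0.89, the 6 basal pairs lie between 0.07 and 0.72, and Krt18 is negative with every keratin shown except Krt14.

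Pairs of keratins in a tumour, luminal against basal or both luminal, were described as the difference of 2 levels. It was centred on its mean over the 10 tumours, with no test. Krt8 minus Krt5 was -0.47, -0.03, -0.32, -1.21 and 0.04 in WD1 to WD5 and 0.80, 0.05, -0.30, 0.89 and 0.54 in CD1 to CD5. The lowest tumour was WD4, the highest was CD4, and the groups overlapped. Krt8 minus Krt18 on the tested probes averaged -0.50 ± 0.73 (SD, n = 5) in the Western-style and 0.50 ± 0.76 (n = 5) in the control group. The other Krt18 probe, itself lower by 0.43 in the Western-style group, was not used here. Array brightness correlated with Krt8 at 0.83, with Krt5 at 0.49 and with Krt18 on the tested probe at -0.40. Brightness was not removed from these differences, and its part in them was not tested. Krt8 minus Krt19 spanned 1.30 in all (log2), with WD1 at 0.93 and the other 9 tumours between -0.36 and 0.26.

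Genes most like Krt8 and Krt14 over the 10 tumours were named by Pearson correlation among tested genes with a symbol, as a description. The 5 most like Krt8 were Abhd14b (0.98), Nek9 (0.98), Adgrg1 (0.98), Akt2 (0.98) and Ppp2r2a (0.98), which themselves correlated with array brightness at 0.81 to 0.86. Krt19 ranked 155th in that order. The 5 most like Krt14 were Oasl2 (0.94), Ly6e (0.89), Il11ra1 (0.89), RT1-N3 (0.89) and Gp1bb (0.88), with correlations to brightness of -0.20 to -0.02. Krt15 ranked 586th and Krt5 803rd in likeness to Krt14.

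Of 20 other keratin genes with a named probe, 14 were not well above background on any array, and 3 were on 1 to 4 arrays. The 3 tested were Krt6c, Krt76 and Krt33a, with differences of -1.17, -0.36 and -0.18, and 0 passed. Krt76 cleared background on 2 of 5 Western-style and 5 of 5 control arrays, so it was kept through the group where it was higher and its direction carries no weight. Krt6c, a gene of the Krt6 group of keratins of regenerating epithelium, was 4.89, 3.60, 2.68, 3.51 and 5.61 in WD1 to WD5 and 4.91, 4.88, 5.81, 5.86 and 4.70 in CD1 to CD5. Its 3 lowest tumours were WD3, WD4 and WD2, and the difference was -1.17 ± 0.50 (SE; limma adjusted p 0.293), with 0.22 in the other direction on slide 3. Near-identical copies of Krt6 genes may share its probe, so the gene is uncertain.

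Other epithelial genes were counted from fixed lists. Of 20 tested luminal genes 15 were lower and 5 higher, with a median difference of -0.20, and 0 passed. Among all 16779 tested genes 8154 were lower. The luminal genes of smallest p were the progesterone receptor Pgr, lower by 0.99 (limma adjusted p 0.181), Rab25, a GTPase of epithelial vesicle recycling, lower by 0.58 (adjusted p 0.181), and the estrogen receptor Esr1, for which 0 of 5 Western-style and 5 of 5 control arrays were well above background. Esr1 was thus kept through the control arrays alone, which bears on its direction and its rank by p. The epithelial surface gene Epcam was 5.15 ± 0.39 (SD, n = 5) against 5.48 ± 0.40 (n = 5; limma adjusted p 0.521).

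Genes of desmosomes and keratin anchoring were lower in 8 of 11 cases, with a median difference of -0.40, and 0 passed. The other 3 were higher, by 0.23 to 0.39. Of all 16779 tested genes 8154 were lower. The genes of smallest p are named next. Perp and Jup, which encode a desmosome membrane protein and plakoglobin, were lower by 0.53 and 0.57 (limma adjusted p 0.186 for both), and for both the groups did not overlap, as was the case for 2.29% of tested genes in this direction. Dsc3, a desmosomal cadherin of basal cells, was lower by 1.20 (adjusted p 0.305). Of 13 tested basal and myoepithelial genes 10 were lower, with a median of -0.25, and 0 passed. Snai2 was lower by 1.28, Cav1 by 0.92 and Cnn1 by 1.05 (limma adjusted p 0.186, 0.228 and 0.413). Snai2 was well above background on 2 and Cav1 on 3 of 5 Western-style arrays, against 5 of 5 control arrays for both. Snai2 and Cav1, counted among the 10, were thus kept only with the control arrays, where they were higher. Their directions carry no weight.

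Markers of other cell types were counted in the same tumours. All 11 tested fibroblast genes were higher in the Western-style group, with a mean level of 2.07 to 3.64 per tumour against 1.46 to 2.97 in controls. All 5 tested T cell genes were higher (0.60 to 2.54 against 0.10 to 1.05), as were all 10 macrophage genes (1.88 to 3.81 against 2.34 to 3.01) and all 3 tested adipocyte genes (0.15 to 1.44 against -0.62 to 0.87). Of all 16779 tested genes 8623 were higher. The directions were not uniform over slides. On slide 1, with 1 control tumour, most of the fibroblast and macrophage genes were lower in the Western-style group, by as much as 1.28 and 0.89. The adipocyte markers Adipoq and Lep were not among the genes tested. Of 3 tested endothelial genes 2 were higher and 1 lower, with a mean level of -0.60 to -0.30 per tumour against -1.08 to -0.49. Both tested skeletal muscle genes were higher (-1.25 to 0.13 against -1.58 to -1.38). Of 5 tested milk protein genes, products of secretory luminal cells, 4 were lower and 1 higher, with a median difference of -0.67. Their mean level per tumour was -0.996 to 4.35 against 0.646 to 4.43 in controls, so the groups overlapped widely. The lowest tumours were WD4 (-0.996), CD3 (0.646) and WD3 (0.914), from both groups, so the direction of this list carries little weight. In these 7 lists 0 genes passed in limma, and their part in the keratin differences was not tested.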

How the data were processed

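Total RNA of 10 tumours (200 ng each) was hybridised to 1-colour Agilent rat arrays. Signals were read with Agilent Feature Extraction, version 11.5.1.1 per the file headers and version 15.5 per the submitters' processing notes. The deposited intensity values are background-subtracted within an array and not scaled between arrays. The deposited 0 or 1 marks, given per spot, flag outliers, saturation and signals well above background. The deposited log2 matrix, of unstated method, has column medians of 6.97 to 6.98 and each array's rank order of median signals, and how it was normalized between arrays stays unknown.

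Control and outlier spots were left out, signals were taken to log2, each array's 75th percentile was subtracted, and repeat spots were averaged per probe. Of 41012 probes, the 19745 well above background on at least 5 of 10 arrays were kept, and the kept probe of highest mean was used for a gene. Names came from RefSeq (GRCr8) through transcript identifiers, for 17502 probes. The array's annotation is on rn4, so no probe positions are given, and chromosomes, neighbours and promoter windows are those of GRCr8. limma 3.58.1 in R 4.3.3 compared groups, with Benjamini-Hochberg adjustment. Correlations used 100000 permutations (scipy 1.17.1 in Python 3.11.15). The fit was tested on simulated data. Arrays lay on 3 slides, each with its own scan, holding 2 and 1, 2 and 2, and 1 and 2 Western-style and control tumours. Alternatives covered background correction, scaling, filters, slide, brightness, probe choice and each tumour left out. The keratins and lists were chosen with earlier results of these data known. Genes were named as members, as the tested other keratins, as up to 3 of smallest p of a list, as the 5 most like Krt8 and Krt14, or from the lists as cell type markers (Epcam, Adipoq, Lep). The number of arrays limits the precision.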

Additional observations from a re-analysis of the deposited data

Results flagged for a closer look

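The Krt8 level of CD3 was 3.36, where the other 4 control tumours lay between 4.43 and 4.82. The gap to the nearest control was 0.73 of the whole range of the group, above Dixon's 95% critical value of 0.71. This was the only flag among 18 groups of 5 tumours, where chance flags about 1 in 20. Without CD3 the difference of Krt8 was -1.19 instead of -0.96.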

How the results depend on the processing

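Krt8 and Krt19 were lower under all 23 alternatives, by 0.36 to 1.19 and 0.55 to 1.38, and neither passed an adjusted p under 0.05 under any. The probe filters, probe choice, replicate block, outlier spots kept and variance trend left both differences at exactly -0.96 and -1.11. Those settings could change only the p-values of Krt8 and Krt19, so their agreement in direction adds nothing. In limma 0 genes passed under any of the 23 alternatives. The count at an unadjusted p under 0.05 was 499 with normexp background correction, 7055 without a filter on dim probes and 963 with array brightness as a covariate, and 1853 to 3283 without any single tumour. Krt18 differed by -0.049 with quantile normalization, -0.089 on the authors' deposited values, -0.13 with array brightness as a covariate, -0.19 as the mean of both probes and -0.43 on its second probe. With brightness as a covariate Krt5, Krt15 and Krt17 differed by 0.10, 0.59 and 0.14, and with normexp Krt17 by 0.036. Without any single tumour Krt5 ran from -0.37 to -0.042, Krt18 from -0.079 to 0.12, Krt14 from -0.092 to 0.26, Krt15 from -0.43 to 0.19 and Krt17 from -0.23 to 0.11. For these changes the cause was not tested.

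The pairs of keratins that passed numbered 12 with normexp, 3 with slide means removed, 0 with group means or array brightness removed and 0 to 2 without any single tumour. With normexp Krt8 with Krt18 was 0.26, Krt5 with Krt14 0.77 and Krt8 with Krt5 0.73. With brightness removed Krt8 with Krt18 was 0.038 and Krt8 with Krt19 0.72, with group means removed Krt8 with Krt19 was 0.81, and on the second Krt18 probe Krt8 with Krt18 was 0.64. Without any single tumour Krt8 with Krt19 ran from 0.83 to 0.97, Krt5 with Krt14 from 0.28 to 0.88, Krt14 with Krt17 from -0.17 to 0.73, Krt8 with Krt18 from -0.57 to -0.14 and Krt8 with Krt5 from 0.49 to 0.64. The second Krt18 probe and the removal of brightness from correlations were chosen after seeing the data.

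With the replicate number of the labels as a block, the difference of Krt8 was -0.96 (limma adjusted p 0.244) and 2676 genes had an unadjusted p under 0.05, so the block changed no call. Tumours of the same number deviated together at r = -0.02 to 0.16 and 0 of 5 correlated best with their own number, so no pairing by number was seen. With 5 numbers this check cannot tell whether tumours of a number shared anything else, which the labels do not give. Krt1 is limited by background, which 5 of 10 arrays did not clear.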

Other observations

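Intermediate filament and lamin genes other than keratins gave values in the direction opposite to Krt8 and Krt19 for some genes. Of 7 tested non-epithelial filament and lamin genes 5 were higher in the Western-style group, with a median difference of 0.15, and 0 passed in limma. Des, the desmin gene of muscle, was 0.20 ± 0.54 (SD, n = 5) against -0.48 ± 0.32 (n = 5; limma adjusted p 0.261).

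Of 19 genes of the cornified epidermis 8 had a named probe and 4 were tested, with 2 higher and 2 lower and 0 passing in limma. Lgals7, a galectin of stratified epithelium, was 7.15 ± 0.33 (SD, n = 5) against 7.34 ± 0.20 (n = 5; limma adjusted p 0.617). Sbsn and Dmkn, secreted proteins of the upper epidermis, differed by 0.96 and 0.80 (limma adjusted p 0.411 and 0.455), and Dmkn was highest in a Western-style tumour at 1.55, where the control tumours lay between -1.77 and -0.88.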
